A study of Mus musculus with 12 samples.

Results

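A set of 10 genes that mark fat cells was followed in the proximal colon of 12 mice. They are Adipoq, Lep, Retn, Cfd, Plin1, Cidec, Lipe, Lpl, Fabp4 and Car5b, chosen by name as genes of adipocytes and matched by symbol. All 10 were found among 38924 listed genes, of which 37607 had a symbol, and all 10 were among the 20311 genes tested, each of which reached 10 counts in 3 or more mice. The question was at what level they were detected in each mouse and in each genotype, and whether they moved together from mouse to mouse.

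The mice were 6-week-old C57BL/6 females bought from a single vendor. APC Min/+ mice (n = 6) carry a truncating mutation in 1 copy of the tumour suppressor gene Apc in every cell, and WT mice (n = 6) do not. The mutation is a base change that gene counts cannot show, so it gave no check of the labels. The genotypes were caged apart, so cage and genotype cannot be told apart, and the labels do not give the shipment of mice, so no value within a shipment could be had. The labels call the tissue proximal colonic mucosa, whereas the methods describe a short length of bowel put into preservative, with no step that removes muscle or fat.

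White adipocytes store fat as triglyceride in a single large droplet and release it as fatty acids. The droplet is coated and enlarged by dedicated proteins, lipases cut the stored and the circulating fat, and carrier proteins take up the products. The cells also secrete hormones and complement proteins into the blood. Around the gut they lie mostly outside the bowel wall, in the mesentery along which the vessels run.

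Total counts ranged from 50313805 to 197914821 per mouse, so that 3 counts correspond to 0.0152 to 0.0596 CPM (counts per 1000000), and the lowest count of any of the 10 genes in any mouse was 12. Levels are given as CPM scaled by the trimmed mean of M-values (TMM). Mice M10_2 and M13_1, both APC Min/+, stood apart from the other 10: 8 genes of the distal colon summed to 4016 and 3864 CPM in them and to 6.04 to 17.07 CPM elsewhere. Proximal colon markers were mixed in them: 4 of 8 (Hoxb6, Hoxb8, Cyp2c55 and Reg3b) were lowest in this pair, Hoxb6 at 1.57 and 3.18 CPM against 55.5 to 116 CPM elsewhere, and 3 (Ggh, Saa1 and Prdx6b) were highest in it. Genes of the distal list, and Ggh, are among those that the paper reports as upregulated in APC Min/+ in these same mice. They are therefore not an independent check of this pair or of genotype. The main values that rest on M10_2 and M13_1 are also given without them. Mouse M17_1 (WT) had relatively few counts on GC-rich genes: its level of the fifth of genes richest in GC, less that of the fifth poorest in GC, was -0.76 on the log2 scale, against -0.41 to 0.30 in the other mice.

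RefSeq start-site windows (250 bases before to 50 after the start, GRCm38.p6) were on hand for 8 of the 10 genes, and not for Fabp4 or Lpl. Those with a C/EBP site and that of Adipoq, the gene the others are compared with, are shown. Whether a site goes with joint movement was not tested. Capitals mark the letters TTGCNNAA, the site of C/EBP factors, in Plin1, Lep and Cidec, and CCAAT or its reverse ATTGG in Adipoq. The windows are Adipoq at chr16:23146286-23146585 (+ strand), Plin1 at chr7:79732727-79733026 (- strand), Lep at chr6:29059971-29060270 (+ strand) and the second start of Cidec at chr6:113434715-113435014 (- strand), each written 5′ to 3′ along its gene.
Adipoq: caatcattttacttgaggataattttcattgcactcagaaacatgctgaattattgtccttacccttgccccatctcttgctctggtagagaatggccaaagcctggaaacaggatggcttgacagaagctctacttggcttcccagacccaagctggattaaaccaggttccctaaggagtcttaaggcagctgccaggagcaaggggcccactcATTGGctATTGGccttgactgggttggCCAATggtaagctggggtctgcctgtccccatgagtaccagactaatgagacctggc
Plin1: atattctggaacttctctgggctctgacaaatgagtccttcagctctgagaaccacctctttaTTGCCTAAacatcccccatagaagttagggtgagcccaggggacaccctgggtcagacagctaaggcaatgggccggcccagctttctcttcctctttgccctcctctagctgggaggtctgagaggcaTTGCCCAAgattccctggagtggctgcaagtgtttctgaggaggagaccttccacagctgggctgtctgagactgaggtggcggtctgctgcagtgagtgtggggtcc
Lep: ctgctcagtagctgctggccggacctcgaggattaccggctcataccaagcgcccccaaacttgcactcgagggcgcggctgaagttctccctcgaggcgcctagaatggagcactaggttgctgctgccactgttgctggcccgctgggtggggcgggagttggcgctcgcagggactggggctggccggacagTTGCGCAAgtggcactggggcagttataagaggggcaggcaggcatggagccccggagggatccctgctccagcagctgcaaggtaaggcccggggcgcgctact
Cidec: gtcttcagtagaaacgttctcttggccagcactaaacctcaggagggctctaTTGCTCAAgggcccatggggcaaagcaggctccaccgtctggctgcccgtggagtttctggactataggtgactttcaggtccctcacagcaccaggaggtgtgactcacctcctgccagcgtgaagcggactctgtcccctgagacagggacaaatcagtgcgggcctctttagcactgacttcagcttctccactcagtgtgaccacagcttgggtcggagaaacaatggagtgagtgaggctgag

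Positions are counted from the RefSeq start site of each window, which can differ from the gene ends given below. The C/EBP letters began at -187 and -58 in Plin1, at -55 in Lep, where they read the same on both strands, and at -198 from the second start of Cidec. On either strand they were held by 10.8% of all 32851 RefSeq windows, a share of windows and not of genes (the 8 genes had 10 windows). CCAAT lay in the windows of Adipoq and Car5b and in 37.4% of all windows. The E-box CACGTG, the site of USF and SREBP factors, lay in a window of Lipe and in 7.15% of all windows. None of the 8 genes held TATAAA (13.6% of all windows), the nuclear receptor site AGGTCA (16.3%) or the DR1 element of the adipocyte regulator PPARG and its partner RXR (0.0396%), which is AGGTCA repeated after 1 base and so overlaps the single site. No motif was common to all 8 genes, and the windows of Cfd and Retn held none of those searched. A match describes letters only, and the windows span 300 bases.

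**Figure D1:**
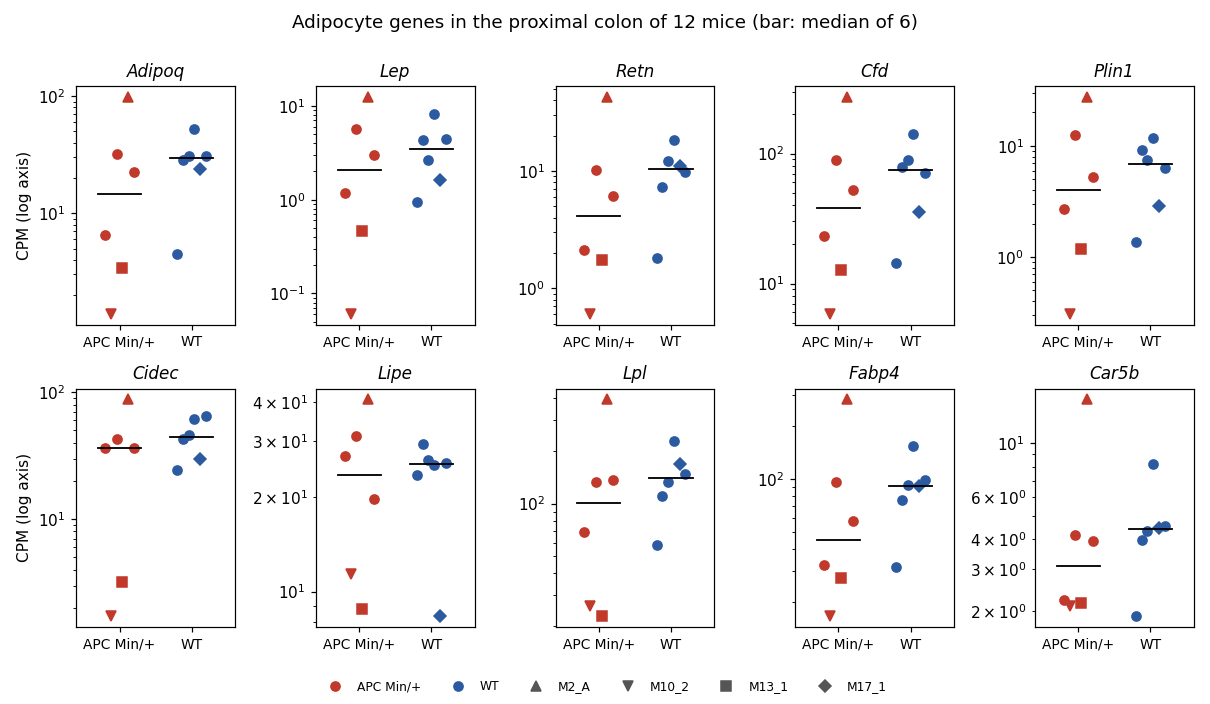
Level of each of the 10 adipocyte genes (CPM, log axis) in 6 APC Min/+ mice (red) and 6 WT mice (blue), with the median of each genotype as a bar and 4 mice marked by their own symbols. The genotypes overlap for all 10 genes, and M2_A is the highest mouse in every panel.

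The hormones of fat cells were detected in every mouse and differed far more between mice than between genotypes. Adipoq (chr16:23146536-23158028, + strand) encodes adiponectin, a hormone that raises sensitivity to insulin. In APC Min/+ mice its lowest, median and highest levels were 1.38, 14.6 and 98.7 CPM, and in WT mice 4.48, 29.6 and 52.1 CPM. Both the lowest mouse (M10_2) and the highest (M2_A) were APC Min/+, so the WT range lay inside that of APC Min/+. The means were 27.4 ± 36.9 CPM in APC Min/+ and 28.4 ± 15.3 CPM in WT (SD, n = 6 each).

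Lep (chr6:29060220-29073877, + strand) encodes leptin, which signals the size of the fat stores to the brain. Its lowest, median and highest levels were 0.0606, 2.07 and 12.5 CPM in APC Min/+ and 0.934, 3.50 and 8.19 CPM in WT. The ends of the range were again M10_2 and M2_A, and the levels there differed 206-fold, the widest range of the 10 genes over 12 mice. That range rests on 12 counts in M10_2, and without M10_2 and M13_1 it was 13.4-fold, below those of Retn (23.4), Adipoq (22.0), Plin1 (20.3) and Cfd (19.15).

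Retn (chr8:3655770-3660110, + strand) encodes resistin, a hormone that mouse adipocytes secrete. The lowest, median and highest levels of Retn were 0.606, 4.10 and 42.9 CPM in APC Min/+ and 1.83, 10.4 and 18.4 CPM in WT. M2_A alone held 34.5% of the Retn level summed over the 12 mice, the largest such share of the 10 genes. Cfd (chr10:79890853-79892655, + strand) encodes adipsin, the protease that starts the alternative pathway of complement. For Cfd the lowest, median and highest levels were 5.84, 37.9 and 273 CPM in APC Min/+ and 14.3, 74.9 and 142 CPM in WT. The same mice, M10_2 and M2_A, were lowest and highest for both genes, and the genotypes overlapped.

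Plin1 and Cidec, whose proteins sit on the lipid droplet, differed in how they varied among 10 of the mice. Plin1 (chr7:79720218-79732903, - strand) encodes perilipin, which coats the droplet and controls access of lipases. Its lowest, median and highest levels were 0.308, 3.97 and 27.7 CPM in APC Min/+ and 1.36, 6.91 and 11.7 CPM in WT, in the same pattern as the hormones. Cidec (chr6:113424634-113435760, - strand) encodes a protein that fuses droplets into larger ones. Cidec had lowest, median and highest levels of 1.71, 36.3 and 87.9 CPM in APC Min/+ and 24.5, 44.3 and 65.0 CPM in WT. M10_2 and M13_1, at 1.71 and 3.20 CPM, lay below the lowest WT mouse, and the other 10 mice lay at or above it. Without them Cidec ranged 3.59-fold over 10 mice, against 22.0-fold for Adipoq and 20.3-fold for Plin1.

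Among the genes of fat breakdown and uptake, Lipe (chr7:25379527-25398710, - strand), which encodes hormone-sensitive lipase, had the narrowest range of the 10 over 12 mice, 4.90-fold. Without M10_2 and M13_1 that of Cidec was narrower. Its lowest, median and highest levels were 8.79, 23.4 and 40.8 CPM in APC Min/+ and 8.34, 25.4 and 29.5 CPM in WT. The lowest mouse was M17_1, and 5 of the 6 WT mice lay between 23.4 and 29.5 CPM. Exons of an antisense gene, 4732471J01Rik (0.0656 to 0.305 CPM), share bases with those of Lipe, and the strand setting of the counting is not given in the sources used here, so reads of the pair cannot be told apart. Lpl (chr8:68880491-68907448, + strand) encodes lipoprotein lipase, which frees fatty acids from circulating fat. Lpl had lowest, median and highest levels of 22.7, 100 and 392.4 CPM in APC Min/+ and 58.3, 140 and 228 CPM in WT. M13_1 was the lowest mouse for Lpl and M2_A the highest.

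Fabp4 (chr3:10204088-10208576, - strand) encodes a carrier of fatty acids that is abundant in adipocytes and also made by some endothelial cells and macrophages. Its lowest, median and highest levels were 16.6, 45.3 and 283 CPM in APC Min/+ and 31.8, 91.8 and 155 CPM in WT. Car5b (chrX:163976822-164027997, - strand) encodes a carbonic anhydrase of mitochondria. For Car5b the lowest, median and highest levels were 2.10, 3.08 and 15.3 CPM in APC Min/+ and 1.91, 4.39 and 8.24 CPM in WT. Car5b was near its lowest in 4 mice, M17_2, M10_2, M13_1 and M8_2, at 1.91 to 2.23 CPM, although Adipoq differed between them from 1.38 to 6.52 CPM.

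Levels per length of transcript allow the genes to be set beside each other. As mean RPKM (CPM per kilobase of gene model) over the 12 mice, Fabp4 stood at 139 and Cfd at 80.2. Cidec, Adipoq and Lpl followed at 21.4, 20.2 and 19.9, which differ by less than the spread between mice, then Retn, Lipe and Plin1 at 6.56, 5.11 and 3.85. Lep and Car5b were lowest at 1.12 and 0.751. The sum of all 10 genes ran from 65.9 CPM in M10_2 to 1274 CPM in M2_A, with medians of 273 CPM in APC Min/+ and 418 CPM in WT.

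Between genotypes, none of the 10 genes passed the test (a fold change of 2 or more with a Benjamini-Hochberg adjusted p under 0.05, from edgeR's quasi-likelihood test) in the fit over all 20311 genes. That fit called 0 genes in all, 0.0% of those tested, while 1071 (5.27%) had an unadjusted p under 0.05, none of them among the 10. DESeq2 called 27 genes, again none of the 10. The paper does report differentially expressed genes in these mice, from edgeR at the same thresholds, without naming the edgeR test used. Why the quasi-likelihood test called none was not tested. The log2 difference, APC Min/+ minus WT, was largest for Cidec, at -0.38 (SE 0.690, adjusted p = 0.927), and for Plin1, at 0.34 (SE 0.827, adjusted p = 0.941). For Adipoq it was -0.05 (SE 0.828, adjusted p = 0.993), for Lep 0.04 (SE 0.878, adjusted p = 0.996) and for Retn 0.06 (SE 0.836, adjusted p = 0.991).

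By median CPM all 10 genes were lower in APC Min/+ than in WT, for example Adipoq at 14.6 against 29.6 CPM. By the fitted log2 difference, 6 of the 10 were higher and 4 lower in APC Min/+, with a median log2 difference of 0.02 beside -0.01 over all genes tested. That tally rested on single mice: without M10_2 and M13_1 all 10 were higher (0.17 to 0.88), and without M2_A all 10 were lower (-1.26 to -0.22). These differences were imprecise, since 98.1% of tested genes had a smaller standard error than Adipoq, and the median over all genes was 0.201. The differences of Cfd, 0.08, and Fabp4, -0.09, carried standard errors of 0.784 and 0.602. For Lpl the difference was -0.12 (SE 0.592), for Car5b 0.12 (SE 0.500) and for Lipe 0.01 (SE 0.368).

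The genotypes overlapped for 10 of 10 genes, as they did for all but 0.118% of the genes tested. Of all tested genes, 0.0443% had every APC Min/+ mouse above every WT mouse and 0.0739% had every one below. The spread among mice of a genotype, as the SD of log2 CPM, was larger in APC Min/+ for all 10 genes, for Adipoq 2.24 against 1.21 and for Cidec 2.27 against 0.56. Without M10_2 and M13_1 it was larger for 9 of 10, for Adipoq at 1.61 and for Cidec at 0.61, and smaller for Lipe (0.43 against 0.67). The difference in spread was not tested. Without M10_2 and M13_1 the mean of Adipoq in APC Min/+ was 40.0 ± 40.6 CPM (SD, n = 4), and the log2 difference turned from -0.05 to 0.49. It turned sign likewise for Fabp4 (0.37), Lpl (0.37) and Cidec (0.17), and none of the 10 passed the test. In these mice, high distal colon markers and low adipocyte genes go together and cannot be told apart.

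Without M2_A the log2 differences of Adipoq and Retn were -1.08 and -1.26, and no adjusted p of the 10 genes was below 0.548 (edgeR's quasi-likelihood test). In tissue pieces such as these, fewer adipocytes and less of each RNA per adipocyte cannot be told apart.

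**Figure D2:**
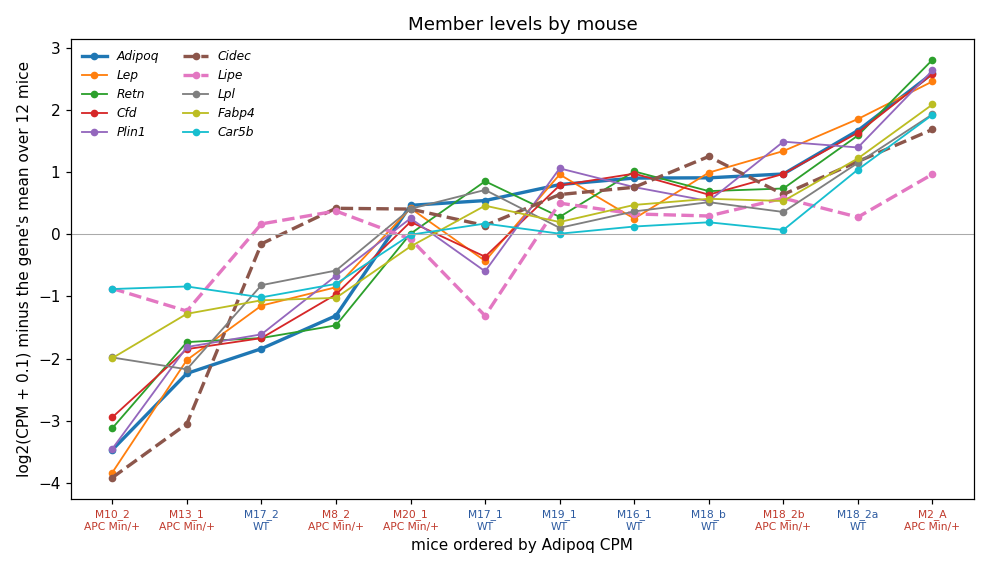
Level of each gene by mouse as log2(CPM + 0.1) minus the gene's own mean over 12 mice, with the mice ordered by Adipoq and their names coloured by genotype (red, APC Min/+; blue, WT). Most lines climb with Adipoq, while the dashed lines of Cidec and Lipe run flatter from M17_2 onwards. Lipe, Plin1, Cfd and Lep dip at M17_1, and Cidec dips there less deeply.

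The genes moved together from mouse to mouse. M2_A was the highest mouse for 10 of 10 genes, M10_2 the lowest for 7, and M10_2 and M13_1 were the lowest pair for 8, the exceptions being Car5b and Lipe. On log2(CPM + 0.1) values over the 12 mice, Pearson's r with Adipoq was 0.98 for each of Retn, Cfd and Fabp4. It was 0.96 for each of Lep, Plin1 and Lpl, 0.89 for Car5b and 0.88 for Cidec. Each of these 8 had an adjusted permutation p of 0.0122 or less over all 20310 other genes tested, and an unadjusted p between 1e-05, the smallest that 100000 permutations can give, and 3e-05. Lipe had the weakest relation, with r = 0.60 and a permutation p of 0.0351, adjusted to 0.149.

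Spearman's rho with Adipoq ran from 0.83 (Lpl) to 0.99 (Fabp4) for the 8 genes and was 0.66 for Lipe. By rank, the permutation p was 0.00139 or less for the 8 and 0.0232 for Lipe, and the adjusted p was below 0.05 for 5 of 9 genes (Fabp4, Lep, Plin1, Cfd and Cidec). Among all other genes tested, 0.236% had an r of at least 0.9 with Adipoq and 2.27% one of at least 0.8, against 6 and 8 of the 9 adipocyte genes. An adjusted permutation p of r under 0.05 was held by 2.85% of all genes with a positive r and 1.82% with a negative r, against 8 of 9 and 0 of 9. The median r over all genes was 0.02. Such values share library, depth and base composition between the genes compared, and the genes were picked as ones of a single cell type.

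**Figure D3:**
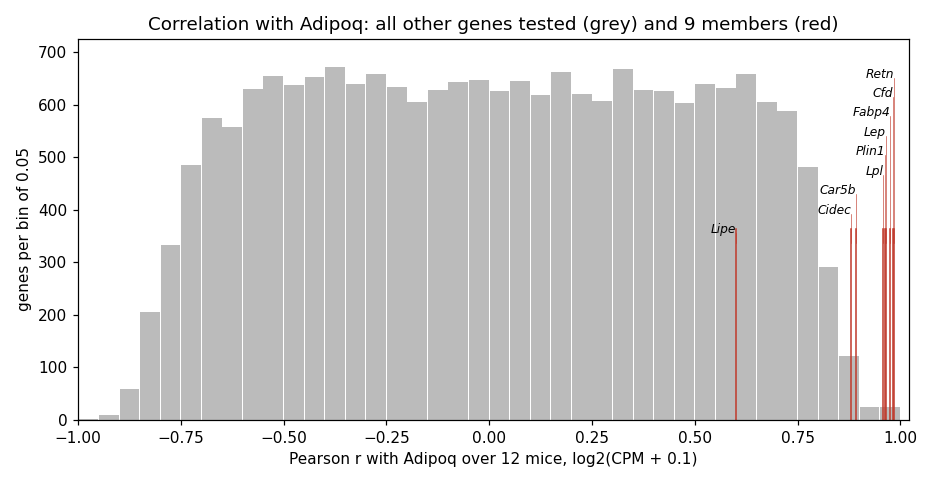
Pearson's r with Adipoq over 12 mice for all other genes tested (grey bars, genes per bin of 0.05) and for 9 adipocyte genes (red lines). The lines of 8 genes stand at 0.88 or above, at the right edge of the distribution, and Lipe stands at 0.60.

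By Pearson's r the relation of 8 genes with Adipoq held without the 2 lowest mice and without the highest, and that of Lipe did not. The 2 mice farthest from the median of Adipoq on the log2 scale were M10_2 and M13_1. Without them r was 0.83 (Cidec) to 0.98 (Retn) for the 8 genes and 0.25 (permutation p = 0.436) for Lipe. Without M2_A, the highest mouse, r was 0.87 (Cidec) to 0.98 (Retn) for the 8 genes and 0.51 (permutation p = 0.102) for Lipe. Within WT, which holds none of these mice, r was 0.82 (Cidec) to 0.97 (Fabp4) for the 8 genes, each with an exact permutation p of 0.0264 or less. Within APC Min/+ it was 0.89 (Car5b) to 0.996 (Cfd) for those 8, with an exact permutation p of 0.00556 or less. Lipe gave 0.07 within WT (exact permutation p = 0.824) and 0.85 within APC Min/+ (exact permutation p = 0.0347), and the difference between the genotypes was not tested. The WT value includes M17_1, the lowest mouse for Lipe. Without M17_1, r of Lipe over the 11 other mice of both genotypes was 0.79 (permutation p = 0.0027). By rank the relation was less certain in WT, where rho for the 8 genes ran from 0.66 (Lpl) to 0.94 and the exact permutation p was above 0.05 for 5 of them (Plin1, Cfd, Lpl, Retn and Car5b). In APC Min/+ rho was 0.89 or more for all 9 genes.

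Adipoq left a gap of 1.78 on the log2 scale between 4 low mice (M10_2, M13_1, M17_2 and M8_2) and the 8 others. Within those 8 mice r was 0.87 to 0.97 for the 8 genes and 0.61 for Lipe, a comparison added after the data were seen. By rank it was weaker there, with rho of 0.45 for Lpl, 0.64 for Lipe and 0.74 to 0.95 for the other 7. Over all 45 pairs of the 10 genes r was 0.49 to 0.99, with a median of 0.91. Without Cidec and Lipe, the lowest of the 28 remaining pairs was 0.83.

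**Figure D4:**
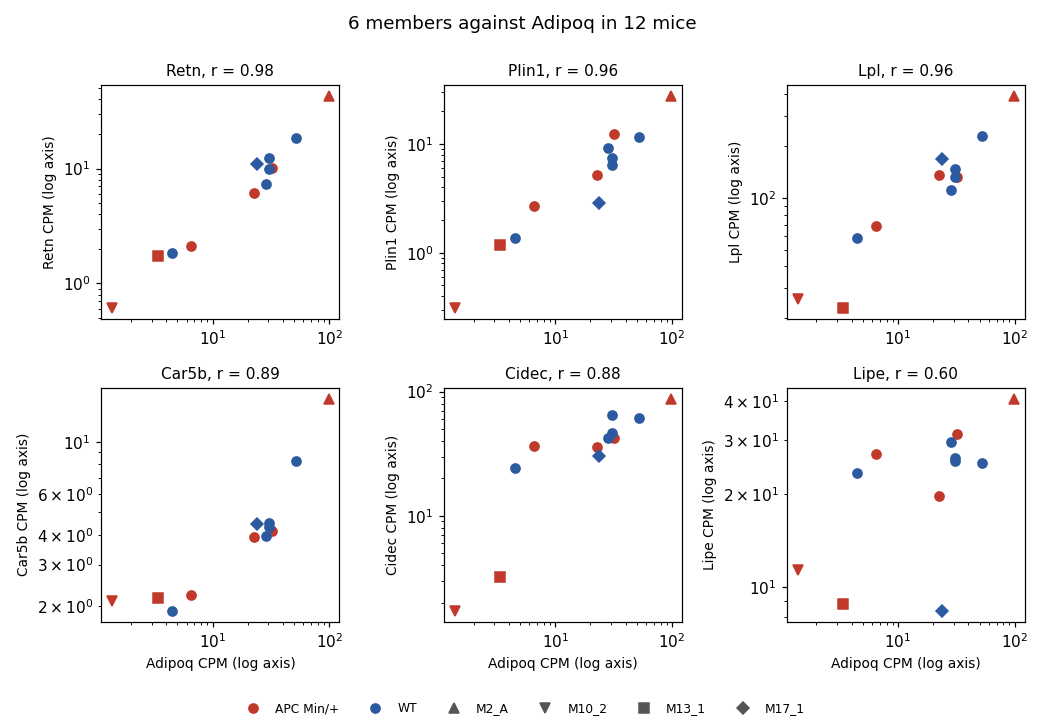
Levels of 6 adipocyte genes against that of Adipoq (CPM, log axes on both sides) in 12 mice, coloured by genotype (red, APC Min/+; blue, WT). Retn and Plin1 climb in step with Adipoq, Lpl and Car5b less steeply, Cidec splits M10_2 and M13_1 from the other 10 mice, and Lipe shows M17_1 low.

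How steeply a gene followed Adipoq differed. On log axes the slope was 0.95 for Lep, 0.92 for Retn, 0.91 for Plin1 and 0.88 for Cfd. Without M10_2 and M13_1 it was 0.83, 1.0, 0.88 and 0.92 for these. The ratio of Retn to Adipoq lay between 0.258 and 0.516, a 2.0-fold range while Adipoq itself ranged 71.4-fold. A slope near 1.0 did not always go with a steady ratio. The ratio to Adipoq ranged 2.83-fold for Cfd, 3.47-fold for Plin1 and 4.76-fold for Lep, beside 4.84-fold for Lpl and 4.68-fold for Fabp4. The slope was 0.64 for Lpl, 0.63 for Fabp4 and 0.42 for Car5b (0.57, 0.71 and 0.60 without that pair), so these genes stood higher relative to Adipoq in the mice with little Adipoq. Lpl, for example, was at 3.88 times the Adipoq level in its lowest mouse by this ratio and at 18.8 times in its highest.

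Lipe had the flattest slope, 0.25 (0.12 without that pair), and its ratio to Adipoq ranged 23.4-fold (14.9-fold). Cidec had a slope of 0.84 over 12 mice and 0.35 without M10_2 and M13_1. In M8_2, where Adipoq stood at 6.52 CPM, Cidec was at 36.4 CPM, and in M20_1 it was at 36.1 CPM beside 22.6 CPM of Adipoq. The difference between slopes was not tested.

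In M17_1, the WT mouse short of counts on GC-rich genes, several genes left their usual ratio to Adipoq. Relative to the median of the other 11 mice, the ratio in M17_1 was lower by 1.48 for Lipe, 1.22 for Plin1, 1.11 for Lep, 0.91 for Cfd and 0.24 for Cidec on the log2 scale. It was higher by 0.25 to 0.56 for Car5b, Fabp4, Retn and Lpl. The transcripts of Cfd, Plin1, Cidec and Lipe hold 58.4%, 56.9%, 56.5% and 55.6% GC, and those of the other 6 genes 42.7% to 49.3%. The part of base composition in these values was not tested. Without M17_1 the ratio to Adipoq ranged 1.83-fold for Cfd, in place of 2.83-fold, and 2.01-fold for Plin1, in place of 3.47-fold, while that of Retn stayed at 2.0-fold.

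Of all genes tested with a mean of at least 1 CPM (14897 genes), the 15 with the highest r with Adipoq included 4 of the 10, namely Retn, Cfd, Fabp4 and Lep. Car3, a cytosolic carbonic anhydrase abundant in fat, came first with r = 0.996 and ran from 8.18 CPM in M10_2 to 556 CPM in M2_A. The other genes from the list of white adipocyte markers were Adig, Slc7a10, Mrap and Trarg1, with r of 0.97 to 0.99. The other 6 were in no list: Cyp2e1 (a cytochrome that oxidises ethanol, r = 0.98), Serpina3c (a protease inhibitor, 0.98), A530016L24Rik (0.97), Pnpla3 (a lipid hydrolase, 0.97), and Hp and Orm1 (both acute-phase proteins of plasma, 0.97 each). All 15 were highest in M2_A except Cyp2e1, which was at 58.9 CPM there and at 64.7 CPM in M18_2a.

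The wider list of 16 white adipocyte markers gave a median r of 0.85 with Adipoq, and 10 of the 16 had an r of at least 0.8. Car3 and Aqp7, the channel for glycerol, were its highest and lowest genes at 106 and 0.337 mean RPKM. Lgals12, an adipocyte galectin, had the lowest r at -0.08 and held to 21.4 to 39.1 CPM in all 12 mice. The list summed to 128 to 926 CPM in APC Min/+ and to 227 to 619 CPM in WT. None of the 16 passed the genotype test, 6 were higher and 10 lower in APC Min/+, and the median log2 difference was -0.06.

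Among 22 enzymes and proteins of fat storage and lipolysis, the median r with Adipoq was 0.55 and 5 genes had an r of at least 0.8. The highest was that of Scd1, a desaturase of fatty acids, at 0.93, with 47.5 to 571 CPM over the mice. The lowest was that of Acly, which supplies acetyl-CoA for fatty acid synthesis, at -0.73. Pck1, of glyceroneogenesis, had the highest mean level at 66.6 RPKM and Plin5, a droplet protein of oxidative tissues, the lowest at 0.165 RPKM. None of the 22 passed the genotype test, and 8 were higher and 14 lower in APC Min/+, with a median log2 difference of -0.07.

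The 11 adipogenic transcription factors mostly did not follow the fat cell genes, with a median r of 0.07. Pparg, the main regulator of adipocyte identity, had both the highest mean level, 71.1 RPKM, and the highest r, 0.84, and ran from 35.2 CPM to 204 CPM in M2_A. Ebf2 had the lowest mean level, 0.121 RPKM, and Cebpd the lowest r, -0.79. None of the 11 passed the genotype test (8 higher, 3 lower, median log2 difference 0.15).

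Receptors and partners of the adipocyte hormones and of Lpl were 14 tested genes of 15 listed, with a median r of 0.04. The leptin receptor Lepr was the sole one at 0.8 or above (r = 0.81, 26.2 to 54.9 CPM), and Cfb, which complement factor D cleaves, had the lowest r at -0.68. Cap1, a proposed receptor of resistin, had the highest mean level at 73.7 RPKM. None of the 14 passed the genotype test (6 higher, 8 lower, median log2 difference -0.04). Brown fat markers were near zero in part: 4 of 9 could be tested, the heat-producing Ucp1 stayed at or below 0.0384 CPM in every mouse, Zic1 had the lowest mean level at 0.000606 RPKM and Cox7a1 the highest at 71.6 RPKM. Cox8b had the highest r of the 4 (0.77) and Cox7a1 the lowest (-0.01), with a median of 0.58 and none passing the genotype test.

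**Figure D5:**
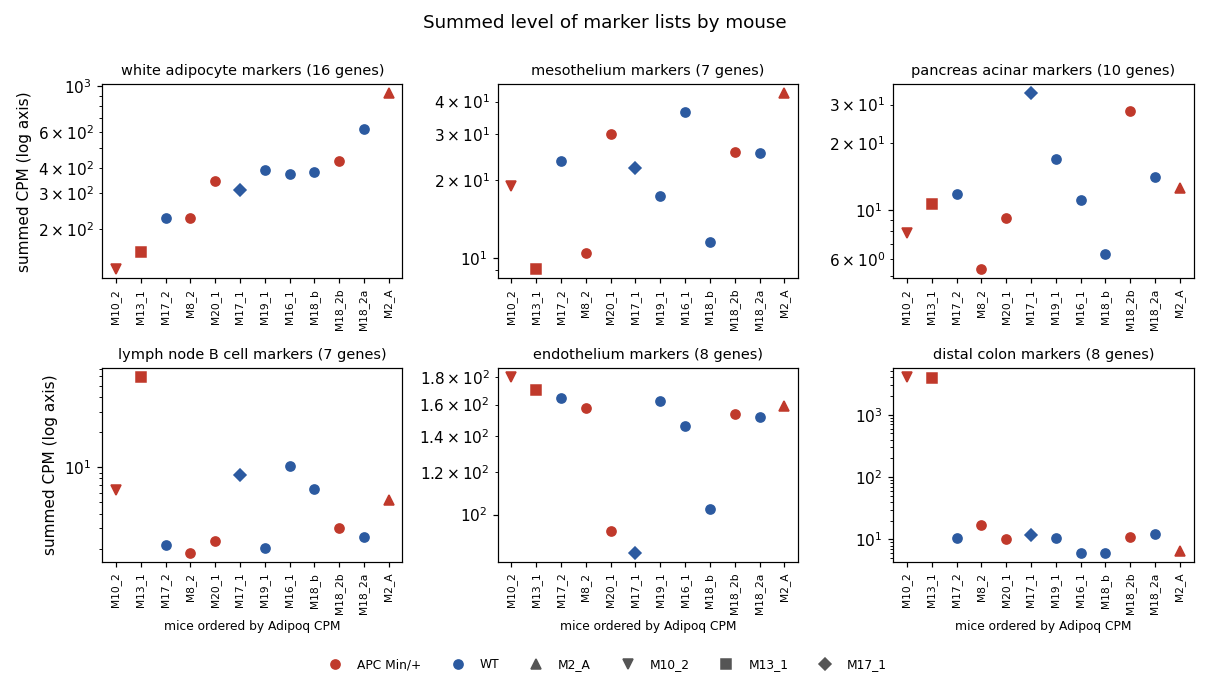
Summed level (CPM, log axis) of 6 marker lists in each mouse, with the mice ordered by Adipoq, coloured by genotype (red, APC Min/+; blue, WT). The white adipocyte list climbs with Adipoq, the distal colon list is high in M10_2 and M13_1, and the lymph node list is high in M13_1.

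Markers of other tissues that lie on or near the bowel were set beside the adipocyte genes. Mesothelium, the lining of the gut surface and mesentery, gave 7 matched genes with a median r of 0.45 with Adipoq and sums of 9.09 to 43.0 CPM in APC Min/+ and 11.6 to 36.4 CPM in WT. Its sum was highest in M2_A and lowest in M13_1, and Upk1b had the highest r, 0.81. Pancreas acinar genes (5 of 10 tested) gave a median r of 0.18 and sums of 5.39 to 28.0 CPM in APC Min/+ and 6.31 to 33.8 CPM in WT, with Clps, the colipase, at up to 32.9 CPM in M17_1. Lymph node B cell genes (7) gave a median r of -0.27, with a sum of 59.4 CPM in M13_1 and of 1.83 to 10.3 CPM in the other mice. Fat progenitor markers (9) gave a median r of -0.08 and sums of 459 to 670 CPM over the 12 mice.

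Of cell types that lie inside the wall, endothelium (8 genes) gave a median r of -0.31 and macrophages (6 genes) one of 0.38. Smooth muscle (8 genes) gave a median r of -0.31 and red blood cells (5 genes) one of 0.33. Colon epithelium (10 genes) gave a median r of 0.35, proximal colon markers (8) one of 0.32 and distal colon markers (8) one of -0.75. Single genes of these lists had an r as far from 0 as some fat-related genes. Colon epithelium ran from -0.69 (Cdh1) to 0.80 (Car1), and proximal colon from -0.80 (Saa1) to 0.83 (Cyp2c55). Distal colon ran from -0.82 (Atp12a) to -0.65 (Hoxd13). An adjusted permutation p of r under 0.05 was held by 1 of 10, 2 of 8 and 2 of 8 genes of these lists. No gene of these 11 lists passed the genotype test in edgeR's fit. An unadjusted p under 0.05 in that fit was held by 5.27% of all genes tested. It was held by 4 of 8 smooth muscle genes (7 of the 8 higher in APC Min/+). It was also held by 2 of 8 proximal colon markers, 1 of 9 fat progenitor markers and 8 of 8 distal colon markers. The distal colon sum was 4016 and 3864 CPM in M10_2 and M13_1 and 6.51 to 17.07 CPM in the other APC Min/+ mice. Distal colon markers, Tgm3, Hoxa13, Hoxd13 and Atp12a among them, are genes that the paper reports as upregulated in APC Min/+ in these same mice. The paper reports the same of the proximal colon marker Ggh. The distal colon count, and that of the proximal list, which holds Ggh, are therefore not independent tests of genotype. Whether attached mesenteric fat gave the adipocyte RNA was not tested.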

How the data were processed

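Total RNA of proximal colon pieces, from 6 mice of each genotype, was sequenced in paired ends. Per the labels, reads were aligned to GRCm38.p2 with STAR 2.3.0 and counted per gene with featureCounts, and the authors deposited raw counts with gene lengths. Annotation release, strand setting and handling of reads with several matches are not given in the sources used here. Symbols were matched by Ensembl ID to a supplied table of gene names, and gene positions and GC content were taken from GENCODE M21 (GRCm38). Counts were tested with edgeR 4.0.16 (TMM scaling, quasi-likelihood fit, genotype as the sole term, Benjamini-Hochberg adjustment) on genes that reached 10 counts in 3 or more mice. DESeq2 1.42.0, other filters and scalings and leaving mice out were alternatives. Correlations used log2(CPM + 0.1) and 100000 permutations (exact for 6 mice), two-sided. Scripts were tested on simulated data. The labels give 12 separate mice.

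The 10 genes and all gene lists were chosen with earlier results of these data known. Named genes were all 10, the 15 most alike to Adipoq, and the extremes in level and in r of the fat-related lists, except 1 gene that is not reported here. For lists of other cell types, only medians, sums and single genes are given. In the lists, Muc16 had no matching row.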

Additional observations from a re-analysis of the deposited data

Results flagged for a closer look

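In 20 groups of 6 mice (10 genes in 2 genotypes), the gap in CPM between an extreme mouse and its nearest neighbour was taken as a share of the whole range. This share was set against Dixon's critical value of 0.625. For normally distributed values, chance passes it in about 1 group in 20. Whether CPM are so distributed was not tested, so that rate may not hold for the critical value here. The APC Min/+ mouse M2_A passed it for 6 genes, as the highest mouse of its genotype. The share was 0.685 for Adipoq, where M2_A stood at 98.7 CPM, 0.687 for Cfd, 0.701 for Fabp4, 0.692 for Lpl, 0.775 for Retn and 0.844 for Car5b. These 6 values come from 1 library and are not independent. The WT mouse M17_1 passed it as the lowest for Lipe, with a share of 0.711 and a level of 8.34 CPM. On log2(CPM + 0.1) values 3 groups passed: Car5b (M2_A, 0.661), Lipe (M17_1, 0.816) and Adipoq in WT, with M17_2 lowest (0.679). The cause was not tested.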

How the results depend on the processing

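None of the 10 genes passed the genotype test in any fit run. Over all genes, DESeq2 called 27, in place of 0 in edgeR's quasi-likelihood test and in the other alternatives. Without M10_2 and M13_1 the log2 difference turned sign for Adipoq (0.49), Fabp4 (0.37), Cidec (0.17) and Lpl (0.37). Without M2_A as well, a choice made after seeing the data, it turned for Lep (-0.18), Cfd (-0.39), Retn (-0.73) and Car5b (-0.42). With the last part of the sample name as a covariate it turned for Plin1 (-0.25), Lep (-0.51), Cfd (-0.59), Retn (-0.84), Car5b (-0.30) and Lipe (-0.15). The cause was not tested.

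Leaving out each mouse in turn gave log2 differences of -1.08 to 0.20 for Adipoq, -0.81 to 0.42 for Lep, -1.26 to 0.31 for Retn, -0.94 to 0.37 for Cfd, -0.55 to 0.60 for Plin1, -0.88 to -0.12 for Cidec, -0.22 to 0.18 for Lipe, -0.84 to 0.10 for Lpl, -0.95 to 0.13 for Fabp4 and -0.63 to 0.35 for Car5b. The lowest adjusted p of any of the 10 was 0.548, without M2_A. Of the Pearson correlations with Adipoq, that of Lipe alone rose above an unadjusted permutation p of 0.05 (its adjusted p over all 12 mice was 0.149). Its r was 0.56 without TMM factors (permutation p = 0.0578), 0.069 within WT and 0.61 in the 8 mice above the gap. It was 0.25 without M10_2 and M13_1 (the mice farthest from the median of Adipoq on the log2 scale). Without each mouse in turn it was 0.50 to 0.79, highest without M17_1, with a permutation p above 0.05 in 8 of those 12 fits. By rank, 5 more genes rose above a permutation p of 0.05 within WT (Plin1, Cfd, Lpl, Retn and Car5b), and so did Lpl in the 8 mice above the gap (rho = 0.45). No paired analysis was possible because the labels do not pair mice across the genotypes. Depth limits Lep in M10_2 most, at 12 counts.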
